A study of Mus musculus with 2 samples.

Results

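Tumor macrophages make growth factors that act on blood vessels, stroma, tumor cells and other macrophages. Transcript levels of 9 such factors were examined here in mononuclear phagocytes from mouse melanoma: *Igf1*, *Pdgfa*, *Pdgfb*, *Pdgfc*, *Vegfa*, *Vegfb*, *Hbegf*, *Csf1* and *Adm*. They were taken by gene symbol from the 16112 genes found in at least 3 cells, and all 9 had at least 5 CPM (counts scaled to the same total in each library) in 1 or both libraries, as did 8701 genes in all. No threshold on level was used to choose them, but they were chosen with earlier results of these data known.

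The cells were tumor mononuclear phagocytes (TMPs) sorted by flow cytometry for MerTk and CD64, both markers of mature macrophages, from B16 melanomas of 500 to 1000 mm3 grown in C57Bl/6 mice. One library (6352 cells) came from Fcmr+/+ mice and the other (7999 cells) from Fcmr-/- littermates, which lack Fcmr (Toso), a putative receptor for soluble IgM, in all tissues. The study's methods describe its controls as matched for sex, age and cage, but the number of tumors pooled in each library, and the age and sex of these mice, are not given in the sources used here. With 1 library per genotype no test was possible, so that differences between genotypes cannot be told apart from differences between libraries, mice or sorts, and all intervals given are 95% intervals for counting error only.

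IGF-1, made from *Igf1*, promotes the growth and survival of many cell types through its receptor Igf1r. The PDGF chains act on fibroblasts and pericytes through Pdgfra and Pdgfrb, and Vegfa drives the growth of blood vessels through Kdr and Flt1. Low oxygen stabilises the transcription factor Hif1a, which is known to induce *Vegfa* and *Adm* in macrophages and other cells.

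RefSeq promoters on mouse assembly GRCm38.p6 were used for 7 of the 9 genes, and *Pdgfb* and *Hbegf*, whose promoters were not searched, are only named here. The 250 bases before the start were searched on both strands for ACGTG and GCGTG, the letters bound by hypoxia-inducible factors, so that CACGT and CACGC count as matches too. At least 1 match lay in 38.6% of 27025 promoters and at least 2 in 16.8%. The 4 sequences below are shown because the levels of *Adm* and *Vegfa* increased, and those of *Vegfb* and *Pdgfc* decreased, along a score of hypoxia genes described further on. They are written 5′ to 3′ on the strand of the gene, with matches in capitals. They lie at chr7:110627407-110627656 (+) for *Adm*, chr17:46032378-46032627 (-) for *Vegfa*, chr19:6987652-6987901 (-) for *Vegfb* and chr3:81036166-81036415 (+) for *Pdgfc*.
Adm: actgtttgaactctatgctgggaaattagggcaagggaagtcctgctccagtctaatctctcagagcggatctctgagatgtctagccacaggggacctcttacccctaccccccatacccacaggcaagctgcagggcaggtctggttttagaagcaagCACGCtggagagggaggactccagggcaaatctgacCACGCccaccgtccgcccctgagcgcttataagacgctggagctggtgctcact
Vegfa: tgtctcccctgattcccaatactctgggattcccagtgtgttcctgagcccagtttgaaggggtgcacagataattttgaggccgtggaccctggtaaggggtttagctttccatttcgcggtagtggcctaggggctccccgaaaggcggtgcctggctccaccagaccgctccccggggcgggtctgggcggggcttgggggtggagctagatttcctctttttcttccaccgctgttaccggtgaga
Vegfb: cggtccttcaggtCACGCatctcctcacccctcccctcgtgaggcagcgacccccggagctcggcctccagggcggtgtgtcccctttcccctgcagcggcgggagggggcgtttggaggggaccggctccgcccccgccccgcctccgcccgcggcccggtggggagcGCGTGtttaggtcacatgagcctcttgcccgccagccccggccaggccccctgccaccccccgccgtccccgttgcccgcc
Pdgfc: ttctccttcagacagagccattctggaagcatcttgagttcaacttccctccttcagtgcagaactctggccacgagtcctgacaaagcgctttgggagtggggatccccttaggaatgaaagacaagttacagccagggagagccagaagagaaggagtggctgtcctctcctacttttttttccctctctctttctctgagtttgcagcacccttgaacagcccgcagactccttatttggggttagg
*Adm* had 2 matches, 90 and 54 bases before its start, and *Vegfb* also had 2, at 237 and 81 bases. *Igf1* and *Pdgfa* had 1 each, at 196 and 231 bases, and these windows of *Vegfa*, *Pdgfc* and *Csf1* held 0, which says only that the letters are not there. Starts are those of the RefSeq promoters used. The windows of *Igf1* (chr10:87860861-87861110, +) and *Pdgfa* (chr5:138994945-138995194, -) lie inside the gene coordinates given further on, so these 2 distances are not from the outer ends of those genes. The matches therefore did not separate the genes that increased from those that decreased.

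Before the values, 4 features of the libraries bear on them. The Fcmr+/+ library was deeper, with a median of 17973.5 UMIs (unique molecular identifiers, each counting 1 captured transcript) per cell against 12911, and 128408544 against 124630621 UMIs in total. *Fcmr* itself had 7 UMIs in Fcmr+/+ and 6 in Fcmr-/- cells, too few to check the labels, and reads at the 3′ end need not fall in the deleted part. Only 1 Fcmr+/+ and 9 Fcmr-/- cells had under 20 UMIs of 13 macrophage genes, among them *Mertk* and *Fcgr1* (CD64), and 73 cell barcodes occurred in both libraries. Genes of other cells are given as summed CPM in Fcmr+/+ and Fcmr-/- in that order. The 7 melanoma genes (*Gpnmb*, which macrophages also make, left out) had 41.6 and 65.5 CPM. The 8 T and NK cell genes had 3.09 and 17.1 CPM, 6 neutrophil genes 31.6 and 48.2, and 9 dendritic cell genes 8.45 and 14.1. The 6 endothelial genes, among them the VEGF receptor gene *Kdr*, had 7.13 and 12.8 CPM. The sums of the remaining lists were lower in Fcmr-/- cells. The 4 hemoglobin genes had 25.7 and 13.97 CPM and 4 B cell genes 12.4 and 10.4. The 7 fibroblast genes had 1.36 and 1.196 CPM. The part of genes of other cells in the levels below is given where they moved with them.

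*Igf1* was the most abundant of the 9 transcripts in both libraries and *Pdgfb* the least. Since each UMI is a tag from the 3′ end, CPM is compared between genes without scaling by length. *Igf1* (ENSMUSG00000020053, chromosome 10, 87858265 to 87937042, GRCm38) was at 320.7 CPM (interval 318 to 324) in Fcmr+/+ and 234 CPM (232 to 237) in Fcmr-/- cells. *Vegfa* (ENSMUSG00000023951, chromosome 17, 46016993 to 46032369) was the next, at 109 CPM (107 to 110.4) and 154 CPM (152 to 156). The other 7 lay between 6.97 and 24.5 CPM in Fcmr+/+ and between 6.997 and 19.4 CPM in Fcmr-/- cells.

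The platelet-derived growth factors differed among themselves. *Pdgfc* (ENSMUSG00000028019, chromosome 3, 81036416 to 81214040), which is secreted as a latent dimer that proteases must cleave, had 24.5 CPM (23.6 to 25.4) in Fcmr+/+ and 17.0 CPM (16.3 to 17.8) in Fcmr-/- cells. *Pdgfa* (ENSMUSG00000025856, chromosome 5, 138976014 to 138997370) had 18.3 CPM (17.6 to 19.1) and 14.5 CPM (13.9 to 15.2). *Pdgfb* (ENSMUSG00000000489, chromosome 15, 79995874 to 80014977) had 6.97 CPM (6.52 to 7.44) and 6.997 CPM (6.54 to 7.48). The levels of *Pdgfa* and *Pdgfc* were thus lower in the Fcmr-/- library, with intervals that did not overlap, whereas those of *Pdgfb* overlapped almost fully.

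*Vegfb* (ENSMUSG00000024962, chromosome 19, 6982473 to 6987651), a relative of Vegfa that binds Flt1 but not Kdr, was at 21.03 CPM (20.2 to 21.8) in Fcmr+/+ and 19.4 CPM (18.6 to 20.2) in Fcmr-/- cells. *Hbegf* (ENSMUSG00000024486, on chromosome 18), a membrane-bound ligand of the EGF receptor that proteases release, was at 19.0 CPM (18.2 to 19.8) and 11.2 CPM (10.6 to 11.8). *Csf1* (ENSMUSG00000014599, chromosome 3, 107741048 to 107760469), the growth factor on which macrophages themselves depend, was at 7.32 CPM (6.86 to 7.804) and 9.39 CPM (8.86 to 9.94). *Adm* (ENSMUSG00000030790, chromosome 7, 110627661 to 110629820) encodes adrenomedullin, a peptide that widens vessels, and was at 12.5 CPM (11.9 to 13.2) and 9.03 CPM (8.51 to 9.57). In the order of levels, the intervals of neighbours overlapped for *Hbegf* with *Pdgfa* and for *Csf1* with *Pdgfb* in Fcmr+/+ cells, and for *Csf1* with *Adm* in Fcmr-/- cells.

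Of the 9 factors, 0 were at least 1.5-fold higher and 1, *Hbegf*, was at least 1.5-fold lower in Fcmr-/- cells. Over all 8701 genes with at least 5 CPM in either library, 2.40% were at least 1.5-fold higher and 1.69% at least 1.5-fold lower, and 1 call among 9 genes is too few to set the factors apart from that. The log2 ratio of Fcmr-/- to Fcmr+/+, taken after adding 1 CPM, was -0.71 for *Hbegf*, or 1.69-fold lower without the added CPM. It was -0.50 for *Pdgfc*, -0.45 for *Igf1*, -0.43 for *Adm*, -0.32 for *Pdgfa*, -0.11 for *Vegfb* and 0.00 for *Pdgfb*. *Csf1* and *Vegfa* had the positive values, 0.32 and 0.50. The median of the 9 was -0.32, against 0.00 over all genes with at least 5 CPM.

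**Figure D1:**
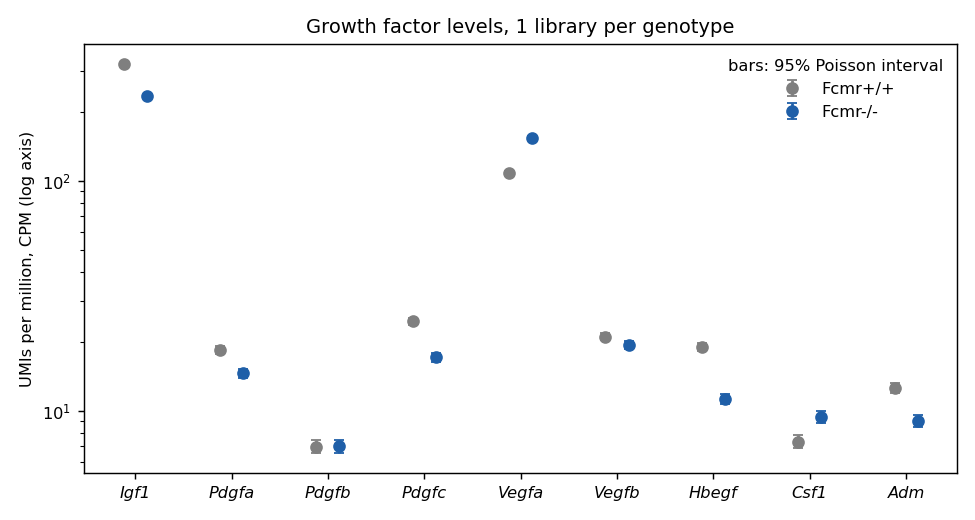
Level of each growth factor in the 2 libraries in CPM on a log axis, with 95% Poisson intervals for counting error. *Igf1* and *Vegfa* stand above the other 7, and *Hbegf* shows the widest gap between the libraries, 19.0 against 11.2 CPM.

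To count the cells that held each factor at equal depth, cells were thinned to 6643 UMIs each, leaving 6201 Fcmr+/+ and 7199 Fcmr-/- cells after 151 and 800 shallower ones were left out. The cells left out were spread unevenly over the clusters described below. In clusters 5 and 8, where *Adm* was highest, 412 of 571 and 673 of 899 Fcmr-/- cells stayed. Of the Fcmr+/+ cells, 895 of 935 and 247 of 268 stayed there. The thinned shares of the 2 libraries thus cover these clusters to unlike degrees. At this equal depth 60.5% of the Fcmr+/+ cells (59.3 to 61.7) held *Igf1*, as did 49.0% (47.8 to 50.2) of the Fcmr-/- cells, against 70.9% and 58.1% without thinning. *Vegfa* was found in 39.9% (38.7 to 41.1) and 48.9% (47.8 to 50.1) of thinned cells, and in 58.1% and 65.2% without thinning. *Vegfa* was thus found in more Fcmr-/- than Fcmr+/+ cells on both scales, although the Fcmr-/- library was the shallower.

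The remaining factors were found in a minority of thinned cells. *Pdgfc* was found in 12.8% of Fcmr+/+ and 8.79% of Fcmr-/- cells (29.99% and 18.8% without thinning) and *Vegfb* in 10.9% and 10.7% (29.0% and 22.4%). *Hbegf* was found in 9.16% and 5.29% (19.3% and 10.4%), *Pdgfa* in 9.08% and 7.83% (20.9% and 14.2%) and *Adm* in 5.37% and 3.56% (10.3% and 6.40%). *Pdgfb* was found in 3.97% and 3.95% (9.40% and 7.90%) and *Csf1* in 3.90% and 5.07% (9.07% and 8.90%). For *Csf1* the thinned share was higher, and the unthinned share lower, in Fcmr-/- cells.

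No cell type known to lack these transcripts was sorted, so the lowest share in any cluster of cells served as an upper limit on what free RNA in the droplets could give. For *Igf1* that lowest share was 27.1% in Fcmr+/+ and 23.2% in Fcmr-/- thinned cells, and for *Vegfa* 13.7% and 18.1%. For *Adm* it was 0 of 91 thinned cells in the smallest Fcmr+/+ cluster, which allows a share of up to 3.30%, and 1.19% in Fcmr-/- cells. For the other 6 it ran from 1.198% to 4.05% in Fcmr+/+ and from 1.82% to 6.00% in Fcmr-/- cells. The lowest share in a cluster can never exceed the share in its library, so that it lies below is no check on free RNA.

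Transcripts of some factors were concentrated in few cells. The 1% of cells with the most *Adm* UMIs held 36.1% of all *Adm* UMIs in Fcmr+/+ and 46.8% in Fcmr-/- cells. For *Igf1* the same share of cells held 5.63% and 7.86%, and for *Vegfa* 8.10% and 6.76%. *Csf1* (33.2% and 33.0%), *Pdgfb* (29.4% and 28.7%) and *Hbegf* (21.6% and 31.4%) lay nearer to *Adm*, while *Pdgfc* (10.2% and 13.6%) and *Vegfb* (10.4% and 11.3%) lay nearer to *Igf1*. A low mean level by itself raises this share, so it describes the spread of each gene and does not rank the genes.

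To place the factors among macrophage states, the cells were grouped into 9 clusters from 1332 variable genes that excluded all 9 factors. Cluster 1 was led by *Iigp1*, *Serpina3g* and *Cxcl9*, with 11 of 16 interferon gamma response genes at least doubled against the other cells, and 96.1% of its cells came from the Fcmr-/- library. Cluster 2 was led by *Ccl17* and *Cd209a* and had all 7 MHC class II genes doubled, together with 4 of 9 dendritic cell genes, cluster 3 by *Cxcl3*, *Csf3* and *Serpinb2* with 6 of 10 inflammatory genes, and cluster 4 by *Cenpf* and *Nusap1* with all 14 cell cycle genes. Cluster 5 was led by the hemoglobin gene *Hbb-bs* and by *Adm*, *Hspb1* and *Gadd45a*, with 9 of 26 hypoxia and glycolysis genes. Cluster 6 was led by *Tfrc*, *Gpr34* and *Marco* with 6 of 10 genes of Mrc1-positive resident macrophages, cluster 7 by *Fbxo32*, *Acp5* and *Itgax*, and cluster 9 by *Mfge8*, *Plpp3* and *Mmp12*. Cluster 8 was led by *Rsad2* and *Ifit* genes, with all 16 type I interferon genes and 10 of 26 hypoxia and glycolysis genes. From cluster to cluster the Fcmr-/- share of cells ran from 22.9% in cluster 6 to 96.1% in cluster 1, with 81.6% in cluster 9. Clusters are ranges of states rather than replicates, and the values by cluster are descriptions.

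The factors differed in the clusters where they were highest, and 5 of the 9 were highest in the same cluster of both libraries. Those were *Adm*, *Pdgfa* and *Pdgfb* in cluster 5 and *Pdgfc* and *Vegfb* in cluster 6. The same count over all genes was not made, so nothing about the factors as a group is read from it. The ratio of the highest to the lowest cluster was largest for *Adm*, 26.8 in Fcmr+/+ cells, whose lowest cluster held 4 *Adm* UMIs, and 38.4 in Fcmr-/- cells. It was smallest for *Vegfb*, 3.15 and 3.51.

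*Adm* was at 57.2 CPM (53.5 to 61.1) in cluster 5 of Fcmr+/+ and 78.6 CPM (71.8 to 85.9) in that of Fcmr-/- cells. Cluster 5 held 14.7% of Fcmr+/+ and 7.14% of Fcmr-/- cells but 55.0% and 43.7% of all *Adm* UMIs. Cluster 8 came next, at 33.7 CPM (27.9 to 40.4) and 19.8 CPM (17.1 to 22.8), and the other 7 clusters had 2.05 to 8.69 CPM in either library. *Pdgfa* was at 41.4 CPM (38.3 to 44.8) and 67.0 CPM (60.7 to 73.7) in cluster 5, while no other cluster passed 24.4 CPM. *Pdgfb* was likewise highest there, at 11.0 and 17.6 CPM.

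Cluster 5 also carried transcripts of other cells. The 7 melanoma genes summed to 81.8 CPM in its Fcmr+/+ and 234 CPM in its Fcmr-/- cells, and 4 hemoglobin genes to 190.3 CPM in its Fcmr+/+ cells but 0.64 CPM in its Fcmr-/- cells. After cells with at least 2 UMIs of T and NK, B, melanoma, fibroblast or endothelial genes were left out, cluster 5 still had *Adm* at 55.7 and 80.4 CPM and *Pdgfa* at 37.0 and 63.7 CPM. *Vegfa* there was at 180.0 and 340.3 CPM without those cells, against 183 and 332 CPM with them. *Pdgfb* there was at 9.69 and 14.1 CPM without those cells, against 11.0 and 17.6 CPM with them. The levels of *Adm* and *Vegfa* in cluster 5 were thus about as high without the cells left out, in both libraries. Those of *Pdgfa* and *Pdgfb* were somewhat lower. Cells with hemoglobin, neutrophil or dendritic cell genes were not left out by this filter, and their part in these levels was not tested. Cluster 8 carried such transcripts as well. Its 4 hemoglobin genes summed to 2.03 CPM in Fcmr+/+ and 149.9 CPM in Fcmr-/- cells. Its 6 endothelial genes summed to 18.6 and 35.0 CPM, the most of any cluster in each library, with *Kdr* itself at 8.43 and 21.6 CPM. Their part in the levels of *Adm* and *Vegfa* in cluster 8 was not tested.

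*Vegfa* followed a wider pattern. In Fcmr+/+ cells it was highest in cluster 8 at 253 CPM (237 to 271), followed by clusters 2 and 5 at 189.7 and 183 CPM, whose intervals overlapped. In Fcmr-/- cells clusters 5 and 8 led at 332 CPM (318 to 347) and 322 CPM (311 to 334), again with overlapping intervals. It was lowest in both libraries in cluster 6, at 34.2 and 50.9 CPM, and the dividing cells of cluster 4 had 34.4 and 60.4 CPM. *Pdgfc* and *Vegfb* were nearly its reverse. *Pdgfc* had 43.3 and 33.1 CPM in cluster 6 against 7.56 and 6.21 CPM in cluster 8, and *Vegfb* had 31.1 and 35.0 CPM in cluster 6 against 9.88 and 10.8 CPM in cluster 8.

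*Igf1* was lowest in cluster 8 at 95.03 and 94.9 CPM and next in cluster 2 at 115 and 97.8 CPM. Cluster 6 had 479 CPM in Fcmr+/+ and 505 CPM in Fcmr-/- cells, and cluster 9 had 402 and 579 CPM. The Fcmr-/- library thus held both the cluster with the most *Igf1* and, in cluster 1 at 135 CPM, a cluster of 28.3% of its cells with little of it. *Hbegf* was highest in clusters 2 and 3, at 27.6 and 24.7 CPM in Fcmr+/+ and 18.7 and 22.7 CPM in Fcmr-/- cells. In cluster 2, where *Vegfa* was also high, the 9 dendritic cell genes summed to 33.9 CPM in Fcmr+/+ and 81.6 CPM in Fcmr-/- cells, and their part in these levels was not tested. *Csf1* was highest in cluster 8 of Fcmr+/+ cells at 18.0 CPM, and in clusters 3 and 8 of Fcmr-/- cells at 21.998 and 21.8 CPM.

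**Figure D2:**
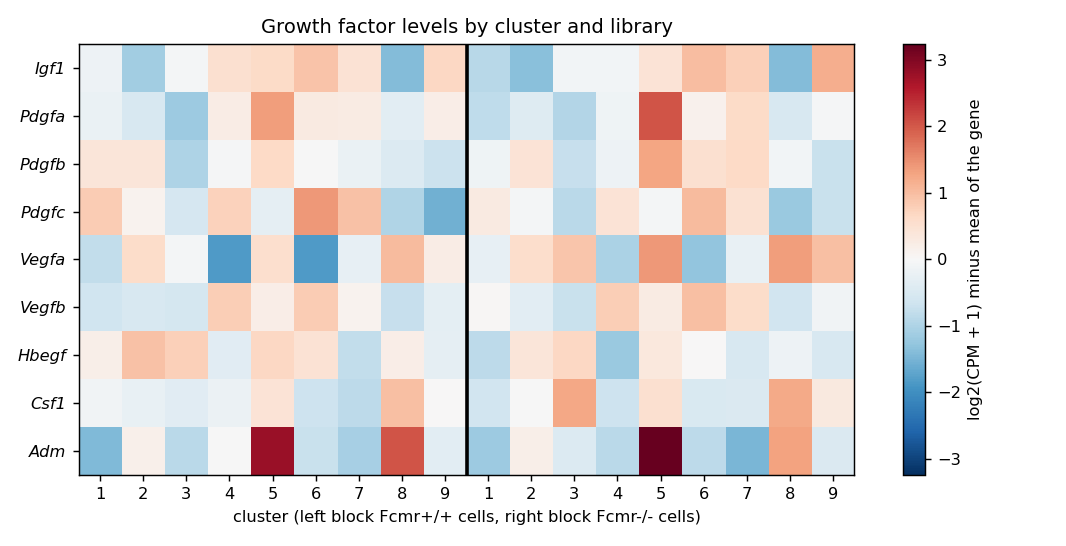
Level of each factor in each cluster of each library, as log2(CPM + 1) minus the mean of that factor over the clusters of both libraries. *Adm*, *Pdgfa* and *Pdgfb* are highest in cluster 5 and *Pdgfc* and *Vegfb* in cluster 6 of both libraries, with *Vegfb* nearly as high in cluster 4.

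The genotypes were also compared within clusters, to lessen the part of the unequal makeup of the libraries. This does not remove it, since the mix of cells inside a cluster can still differ. *Vegfa* was higher in Fcmr-/- cells in 8 of 9 clusters, with log2 ratios from -0.03 in cluster 2 to 0.96 in cluster 3, where it was at 119 and 232 CPM. *Hbegf* was lower in Fcmr-/- cells in 8 of 9 clusters, with cluster 7 as the exception at 7.65 and 9.50 CPM. Of all genes with at least 5 CPM, 20.1% were higher and 13.8% were lower in Fcmr-/- cells in at least 8 of 9 clusters, so neither count sets these genes apart. When each cluster had the same weight in both libraries, the log2 ratio was 0.50 for *Vegfa* and -0.46 for *Hbegf*, which was then under 1.5-fold. The ratio of *Igf1* was -0.12, of *Adm* 0.07 and of *Pdgfa* 0.06 with equal weights, against -0.45, -0.43 and -0.32 over the whole libraries. Cluster 1 entered these ratios with only 91 Fcmr+/+ cells, which held 30 *Hbegf*, 25 *Pdgfa* and 4 *Adm* UMIs.

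*Csf1* in cluster 3 had the widest gap of any factor between genotypes within a cluster. It was at 6.51 CPM (5.28 to 7.93) in Fcmr+/+ and 21.998 CPM (19.5 to 24.8) in Fcmr-/- cells, from 98 and 269 UMIs. The log2 ratio was 1.61, and among 8282 genes measured in that cluster 0.205% had a higher one, while 2.32% were at least 1.5-fold higher. The gene and the cluster were picked for the size of this gap, so its rank does not measure how unusual it is. Neutrophil genes there went from 39.8 CPM in Fcmr+/+ to 94.9 CPM in Fcmr-/- cells, melanoma genes from 36.5 to 49.97 and endothelial genes from 6.64 to 12.02 CPM. Within the endothelial sum *Kdr* went from 2.52 to 5.64 CPM and *Pecam1* from 2.26 to 4.74 CPM, but *Cdh5* from 1.13 to 0.74 CPM. The part of other cells in the gap of *Csf1*, and of *Vegfa*, in this cluster was not tested. In the other clusters the log2 ratio of *Csf1* ran from -0.51 in cluster 1 to 0.37 in cluster 7, and it was positive in 7 of 9 in all.

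**Figure D3:**
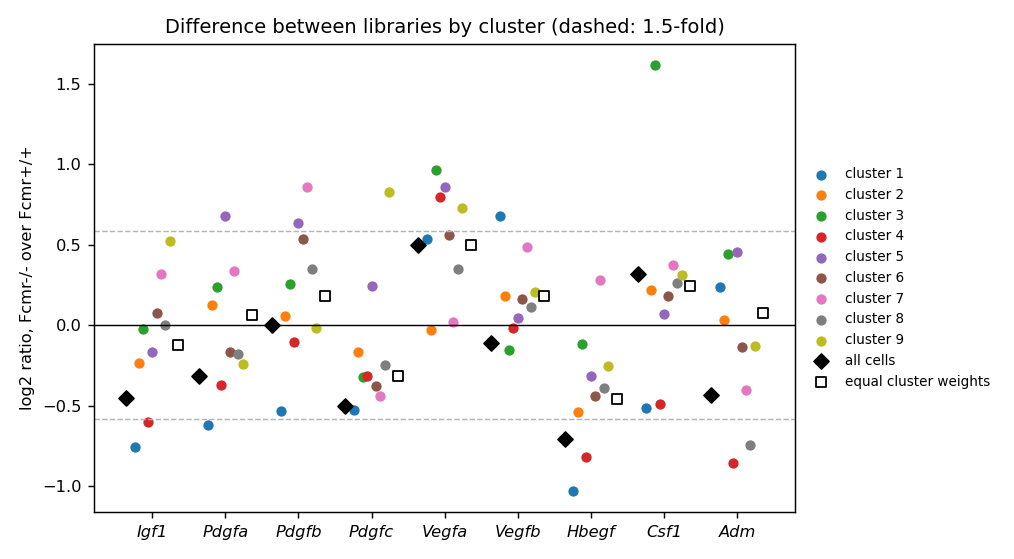
Log2 ratio of Fcmr-/- to Fcmr+/+ for each factor in each of the 9 clusters (points), with diamonds for the whole libraries and open squares for equal cluster weights. *Vegfa* lies above 0 in 8 clusters and *Hbegf* below 0 in 8, and the highest point is *Csf1* in cluster 3 at 1.61.

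The cells were next ranked by the share of their UMIs in 26 hypoxia and glycolysis genes, none of them a factor studied here, and cut into 5 equal parts per library. *Vegfa* increased at every step, from 34.6 CPM in the lowest part through 56.0, 105 and 165 to 213 CPM in Fcmr+/+ cells. In Fcmr-/- cells it went from 45.4 through 90.5, 154 and 221 to 332 CPM. *Adm* went from 0.98 to 47.9 CPM and from 0.73 to 40.4 CPM, and *Csf1* from 5.56 to 10.5 CPM and from 4.79 to 18.9 CPM. These 3 of 9 factors were at least 1.5-fold higher in the highest than in the lowest part of both libraries, as were 6.15% of all genes.

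Another 3 factors were at least 1.5-fold lower in the highest part of both libraries, as were 17.3% of all genes. *Pdgfc* went down at every step, from 39.0 to 8.23 CPM in Fcmr+/+ and from 28.0 to 6.49 CPM in Fcmr-/- cells. *Vegfb* went from 28.5 to 14.5 CPM and from 26.0 to 11.9 CPM, and *Igf1* from 411 to 252 CPM and from 289.9 to 172 CPM. *Pdgfa*, *Pdgfb* and *Hbegf* were higher in the highest part of each library, but by less than 1.5-fold in at least 1 of them. *Pdgfa* had 16.8 and 23.3 CPM in Fcmr+/+ and 13.2 and 22.4 CPM in Fcmr-/- cells, in the lowest and highest part. Without cluster 5 *Pdgfa* turned lower in the highest part, with log2 differences of -0.25 in Fcmr+/+ and -0.29 in Fcmr-/- cells, and *Hbegf* had -0.01 in Fcmr+/+ cells. *Vegfa* and *Vegfb* went in opposite directions along the score with and without that cluster.

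**Figure D4:**
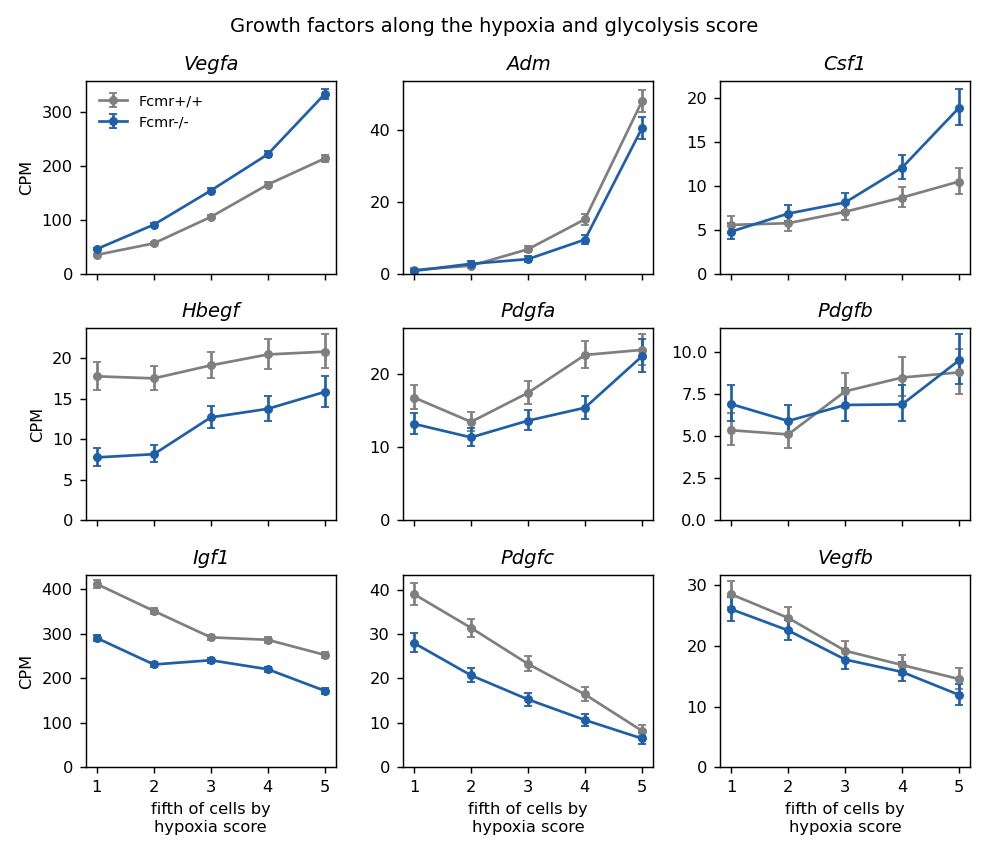
Level of each factor in CPM, with 95% Poisson intervals for counting error, over 5 equal parts of each library, ranked by the share of UMIs in hypoxia and glycolysis genes. *Vegfa*, *Adm* and *Csf1* climb from left to right in both libraries while *Pdgfc*, *Vegfb* and *Igf1* decline, for *Pdgfc* from 39.0 to 8.23 CPM in Fcmr+/+ cells.

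The same directions were seen when cells of each cluster and library were split at the median score, giving 18 comparisons of upper with lower scores. *Vegfa* and *Adm* were each higher in the upper cells of 17 of 18, with median log2 differences of 1.03 and 1.45, and *Csf1* in 16 of 18 with 0.35. *Pdgfc* was lower in 18 of 18 with a median of -0.78, *Igf1* in 17 with -0.37 and *Vegfb* in 16 with -0.30, while *Pdgfa* was higher in 11 and lower in 7. The clusters come from only 2 libraries, so these counts describe how general the pattern was over states. Cells in the highest part were shallower, with a median of 13132 against 17575 UMIs in the lowest part of Fcmr+/+ and 8706 against 13649 in Fcmr-/- cells, and with cells thinned to equal depth the same 6 factors passed. Melanoma genes summed to 34.9 and 62.6 CPM in the lowest and highest part of Fcmr+/+ and to 52.2 and 70.2 CPM in Fcmr-/- cells. In Fcmr-/- cells their sum was highest in the middle part, at 93.6 CPM. Endothelial genes went from 5.48 to 11.02 CPM in Fcmr+/+ and from 7.67 to 27.6 CPM in Fcmr-/- cells. T and NK cell genes went from 5.36 to 30.1 CPM in Fcmr-/- cells, against 3.92 to 1.17 CPM in Fcmr+/+ cells. Hemoglobin genes went from 1.10 to 72.7 CPM in Fcmr-/- and from 1.14 to 1.32 CPM in Fcmr+/+ cells. In Fcmr+/+ cells the hemoglobin sum was highest in the middle part, at 99.99 CPM, against 11.04 CPM in that of Fcmr-/- cells. *Csf1* alone of the 6 dropped below 1.5-fold in Fcmr+/+ cells when cells with transcripts of other types, or cluster 5, were left out, with log2 differences of 0.53 and 0.41 against 0.81.

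A further score was taken over 4 complement genes, *C1qa*, *C1qb*, *C1qc* and *C3ar1*. Along it *Vegfa*, *Adm*, *Csf1*, *Pdgfc* and *Vegfb* went the opposite way to the hypoxia score, whereas *Pdgfa* and *Pdgfb* were higher at the top of both. *Pdgfc* went from 5.71 CPM in the lowest of 5 parts to 40.3 CPM in the highest in Fcmr+/+ and from 4.44 to 27.0 CPM in Fcmr-/- cells, and *Vegfb* and *Pdgfb* were also at least 1.5-fold higher in both. *Vegfa* went from 195 to 58.7 CPM and from 245 to 73.9 CPM, and *Adm* and *Csf1* were also at least 1.5-fold lower. Over all genes 9.15% were higher and 5.02% lower by this measure, and 3 of 9 factors did each. Within clusters, cells above the median score had more *Pdgfc* in 18 of 18 comparisons and less *Vegfa* in 18 of 18. *Igf1* differed between the libraries, from 154 to 405 CPM in Fcmr+/+ but from 229.8 to 218 CPM in Fcmr-/- cells.

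*Igf1* instead had its widest range along the score of 7 MHC class II genes, which present antigen to helper T cells. It went down from 488 to 103 CPM over the 5 parts of Fcmr+/+ and from 499 to 68.3 CPM over those of Fcmr-/- cells. *Pdgfa*, *Vegfb* and *Adm* were also at least 1.5-fold lower, which makes 4 of 9 factors against 6.01% of all genes, and 0 of 9 were higher against 4.95%. *Vegfa* went up from 68.7 to 158 CPM in Fcmr+/+ cells but stayed between 138 and 179 CPM in Fcmr-/- cells. The high level of *Vegfa* in Fcmr-/- cells with little MHC class II, 165 CPM against 68.7 CPM, was the largest log2 ratio of any factor between the libraries along this score, at 1.25. It was larger than the ratio of *Vegfa* in any cluster, at most 0.96. The parts were ranked within each library, and the 7 genes summed to 163 CPM in the lowest part of Fcmr+/+ and 261 CPM in that of Fcmr-/- cells. The part of cluster makeup in this ratio was not tested.

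*Hbegf* followed 10 inflammatory genes, among them *Il1b*, *Cxcl2* and *Tnf*. It went from 6.83 to 35.9 CPM in Fcmr+/+ and from 6.01 to 22.4 CPM in Fcmr-/- cells, increasing at every step. *Csf1* went from 5.14 to 11.0 and from 4.84 to 21.2 CPM, and *Vegfa* from 90.2 to 167 and from 98.4 to 253 CPM. These were 3 of 9 factors at least 1.5-fold higher against 3.92% of all genes, and *Pdgfa* was the 1 at least 1.5-fold lower against 4.33%. The log2 ratio of *Hbegf* between the libraries was -0.16 in the lowest part and lay between -0.66 and -0.76 in the other 4.

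Along 14 cell cycle genes, *Vegfa* went down from 179 to 38.5 CPM in Fcmr+/+ and from 231 to 68.0 CPM in Fcmr-/- cells, and *Hbegf* from 20.2 to 12.6 and from 13.04 to 7.45 CPM. *Adm* was lower as well, going from 13.6 to 7.55 and from 12.8 to 4.48 CPM. *Vegfb* went up from 10.3 to 30.9 and from 11.4 to 29.2 CPM, and *Pdgfc* from 16.5 to 30.4 and from 9.11 to 23.8 CPM. Dividing cells are large, and the highest part had a median of 26579 and 21593 UMIs against 12729 and 9030 in the lowest. In both libraries 2 of 9 factors were at least 1.5-fold higher, against 12.7% of all genes, and 3 of 9 at least 1.5-fold lower, against 4.75%.

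Other scores moved several factors past 1.5-fold in both libraries. The share of all genes was not computed for them. Along 10 genes of Mrc1-positive resident macrophages the log2 difference between highest and lowest part was 2.62 in Fcmr+/+ and 2.36 in Fcmr-/- cells for *Pdgfc*. It was 1.22 and 0.94 for *Vegfb*, -1.55 and -1.25 for *Vegfa* and -0.82 and -0.80 for *Adm*. A further score held 9 genes, *Arg1*, *Mmp12*, *Gpr137b*, *Spp1*, *Gpnmb*, *Mmp14*, *Ctsk*, *Fabp5* and *Lpl*. Along it the difference was 0.61 and 1.75 for *Igf1* and 1.17 and 1.69 for *Vegfa*. *Csf1* had 0.77 and 1.98 and *Adm* 1.25 and 1.80. *Igf1* was thus lower in MHC class II-rich cells and higher in cells rich in these 9 genes together, in both libraries. This does not hold for *Arg1* alone by cluster. *Arg1* was highest in cluster 8 (2991 and 3014 CPM), where *Igf1* was lowest. It was lowest in cluster 6 (201 and 240 CPM), where *Igf1* was high. Cluster 9, also high in *Igf1*, had 1740 and 1535 CPM of *Arg1*. Along 10 immediate early genes, which cell handling can also switch on, *Hbegf* had 1.88 and 0.91, *Adm* 0.96 and 1.71 and *Vegfa* 1.32 and 0.85. The part of handling in these levels was not tested. Along 11 monocyte genes *Igf1* had -1.78 and -2.35, *Pdgfa* -1.29 and -1.04 and *Vegfb* -1.04 and -1.37. *Vegfa* had 1.22 and 0.93 and *Hbegf* 1.11 and 0.72 there. Along 16 type I interferon genes *Igf1* had -0.74 and -1.66 and *Csf1* 0.61 and 0.60. Along 16 interferon gamma response genes *Igf1* had -0.47 and -1.74, past 1.5-fold in Fcmr-/- cells only.

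Which factors occur in the same cell was counted in thinned cells, as the share with both divided by the share that independence would give. Among 36 pairs, 4 reached 1.5 in both libraries. *Pdgfb* with *Adm* reached 2.12 in Fcmr+/+ and 2.18 in Fcmr-/- cells, from 28 and 22 cells with both. *Pdgfa* with *Adm* reached 1.82 and 2.44 (55 and 49 cells), *Pdgfa* with *Pdgfb* 1.57 and 2.25 (35 and 50 cells) and *Csf1* with *Adm* 2.15 and 1.54 (28 and 20 cells). *Vegfa* with *Adm* came close at 1.51 and 1.47, from 201 and 184 cells. Each of the 4 pairs occurred in under 1% of cells. Within clusters, where the odds ratio over both factors was used, *Pdgfa* with *Pdgfb* and *Pdgfb* with *Adm* still passed 1.5 in both libraries, but *Pdgfa* with *Adm* (1.41 and 1.61) and *Csf1* with *Adm* (1.69 and 1.24) did not. In all, 6 pairs passed within clusters. The others were *Igf1* with *Pdgfa* (2.20 and 1.54), *Pdgfc* (2.28 and 1.77) and *Vegfb* (1.76 and 1.55), and *Vegfa* with *Adm* (1.71 and 1.79). The ratio to independence has little room to rise for a factor found in many cells, as *Igf1* was. The same counts over other gene pairs were not made.

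Other pairs were found in fewer cells than independence would give. *Pdgfc* and *Vegfa* shared 212 and 240 cells, 0.67 and 0.77 of the number under independence, and *Pdgfc* with *Adm* reached 0.61 and 0.71. *Vegfa* and *Vegfb* were at 0.71 and 0.84. *Igf1* and *Vegfa*, the pair with the most cells, were found together in 19.2% of Fcmr+/+ and 22.3% of Fcmr-/- cells, or 0.80 and 0.93 of independence. Per cell, 0 of the 9 factors were found in 12.9% of Fcmr+/+ and 17.1% of Fcmr-/- thinned cells, 1 in 39.7% and 39.6%, and 2 in 31.4% and 30.004%. Pearson correlations of counts across the 6201 Fcmr+/+ and 7199 Fcmr-/- thinned cells, which share a library within each genotype, were at most 0.24 and 0.12 in size for any pair, and such weak values in sparse counts are no finding.

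**Figure D5:**
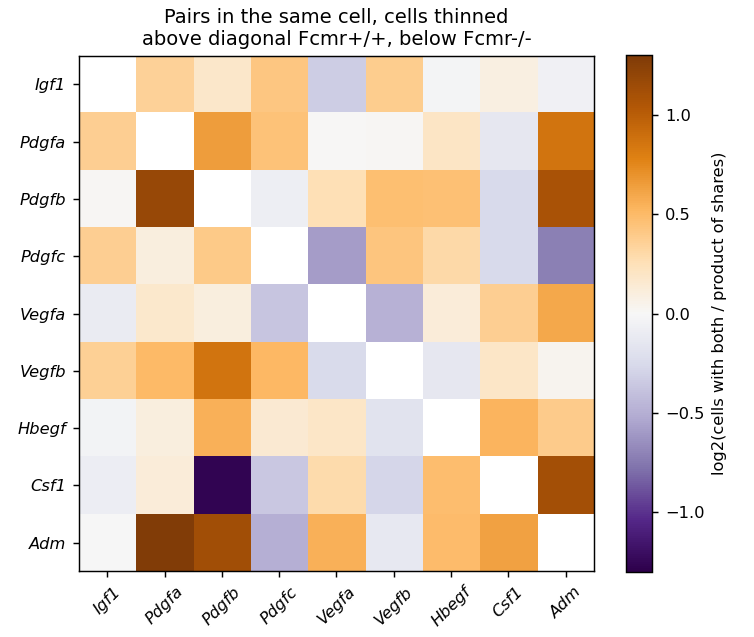
Share of thinned cells with both factors of a pair divided by the share under independence, as log2 colors with Fcmr+/+ above and Fcmr-/- below the diagonal. The 4 pairs at or above 1.5 in both libraries all hold *Adm* or *Pdgfa*, and *Pdgfc* with *Vegfa* or *Adm* lies below 1.

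For each factor the genes with the most similar profile were sought over 18 points, 1 for each cluster and library. Candidates were the 6483 genes that reached 20 CPM at any point. The points share libraries and depth, and so Pearson correlations of log2(CPM + 1) are descriptions. *Adm* was followed by *Polr2l*, *Rlf* and *Suco* (r from 0.947 to 0.951), *Pdgfa* by *Pdp1*, *Socs6* and *Gabarapl1* (0.926 to 0.940), and *Pdgfb* by the heat shock genes *Hspa1a* and *Hspa1b* and by *Cx3cr1* (0.837 to 0.866). *Vegfa* had *Spty2d1*, *Malat1* and *Zbtb18* (0.95 to 0.961), and *Vegfb* had *Trim35*, *Tmem245* and *Sord* (0.945 to 0.959). *Pdgfc* had *Tgfbr2*, a TGF-beta receptor, with *Slc38a6* and *Ubap2l* (0.916 to 0.937). *Igf1* had *Fam198b*, the lysosomal protease gene *Ctsd* and *Tceal8* (0.917 to 0.945). *Hbegf* had *Maff*, *Mapk6* and *Phlda1* (0.822 to 0.871), and *Csf1* had *Rsbn1*, *Fndc3a* and *Map2k1* (0.887 to 0.918).

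Receptors for the factors were present for some and nearly absent for others. *Csf1r*, which carries the Csf1 signal in macrophages, was at 317 CPM in Fcmr+/+ and 286 CPM in Fcmr-/- cells. The VEGF co-receptor *Nrp1* was at 327 and 333 CPM. *Igf1r* was at 14.0 and 11.2 CPM, and *Calcrl*, which encodes a chain of the adrenomedullin receptor but not the whole receptor, at 7.27 and 9.95 CPM. *Pdgfra* had 1 and 3 UMIs and *Pdgfrb* 62 and 47 UMIs in all, and *Egfr*, the receptor of *Hbegf*, had 0.26 and 0.15 CPM, so the main receptors of PDGF and Hbegf were at or near 0 in the sorted cells.

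The VEGF receptors *Flt1*, at 1.11 CPM (0.94 to 1.31) and 8.80 CPM (8.29 to 9.34), and *Kdr*, at 2.78 CPM (2.50 to 3.08) and 6.91 CPM (6.45 to 7.39), were the 2 of 10 receptor genes at least 1.5-fold higher in Fcmr-/- cells, and 0 were lower. Both reached 5 CPM in the Fcmr-/- library only, so that they entered the count through the library where they were high, and nothing is read from the count against the 2.40% and 1.69% of all genes. The median log2 ratio of the 10 was 0.04. Both receptors are also known from endothelium. Of the endothelial list, which holds *Kdr* itself, *Pecam1* was at 2.90 and 4.19 CPM, *Cdh5* at 0.75 and 0.79 CPM and *Egfl7* at 0.61 and 0.83 CPM, *Plvap* had 5 and 3 UMIs and *Tie1* 7 and 4 UMIs. The part of endothelial RNA in *Flt1* and *Kdr* was not tested. Among 14 other growth factors with at least 5 CPM, *Inhba*, which encodes a chain of activin, was higher at 26.2 and 90.0 CPM. *Gdf15* (391 and 226 CPM), *Gdf3* (79.1 and 46.3 CPM) and *Pgf* (7.40 and 4.36 CPM), a relative of Vegfa that reached 5 CPM in Fcmr+/+ cells only, were lower, and the median was -0.04. Of 13 binding and processing genes 1 was at least 1.5-fold lower, *Igfbp4*, which binds IGF-1, at 105 and 68.7 CPM. The log2 ratio by cluster ran from -0.20 to 2.56 for *Inhba* and from -1.35 to 0.11 for *Gdf15*. It ran from -1.32 to -0.44 for *Gdf3*, from -1.47 to 1.24 for *Pgf* and from -0.71 to 0.50 for *Igfbp4*. The part of cluster makeup in these differences between the libraries was not tested. Enzymes that release or mature the factors lay close together, with *Adam17*, which sheds Hbegf, at 81.2 and 96.0 CPM and *Pam*, which amidates adrenomedullin, at 18.6 and 17.5 CPM. Among 8 genes of oxygen sensing 0 passed 1.5-fold in either direction, with *Hif1a* at 113 and 134 CPM.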

How the data were processed

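UMI counts per gene and cell were deposited by the authors, who aligned reads to GRCm38 and counted them with Cell Ranger, per the submitters' processing notes. The counts are raw, for 27998 genes. As in the study's methods, genes had to occur in 3 cells or more, and cells needed 200 to 7000 genes and at most 30% mitochondrial UMIs (14351 cells). No doublet caller was run. Libraries were grouped by the genotype in their labels. Counts were summed per library, cluster or score part and given as CPM, with exact Poisson intervals, exact (Clopper-Pearson) intervals for shares and conditional binomial intervals for ratios, which take no pseudocount, whereas log2 ratios add 1 CPM. Clusters came from Seurat 5.3.0 in R 4.3.3, with 10 principal components and resolution 0.8, and the rest from Python 3.11.15, numpy 2.4.6 and scipy 1.17.1. Gene coordinates are from GENCODE M21. On simulated counts for 16112 genes in the comparison of Fcmr-/- with Fcmr+/+, 96% of 200 changed genes were recovered within 0.25 on the log2 scale. The simulated counts held Poisson counting error only. The recovery therefore checks the calculation and says nothing on variation between cells, mice or libraries.

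Genes named are the 9 factors, listed receptors, ligands and processing genes of at least 5 CPM and 1.5-fold, the main receptor of each factor, the 3 nearest genes, and leading or marker genes of clusters. A few other low receptors and enzymes were named after their values were seen. The factors and all lists were chosen with earlier results of these data known. Alternatives covered pseudocount, scaling, filters, thinning, clustering settings and score parts.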

Additional observations from a re-analysis of the deposited data

Results flagged for a closer look

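*Pdgfa* went in opposite directions between the genotypes in 2 clusters. In cluster 5 its log2 ratio of Fcmr-/- to Fcmr+/+ was 0.68 (interval of the ratio 0.51 to 0.87), and in cluster 1 it was -0.62 (interval -1.26 to -0.03). Each cluster of each library is 1 sample, and the difference was not tested. Cluster 1 held only 91 Fcmr+/+ cells with 25 *Pdgfa* UMIs.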

How the results depend on the processing

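The count of factors at least 1.5-fold higher in Fcmr-/- cells was 0, and became 1 without cells of the cell cycle state (*Csf1*) and 2 without clusters 1 and 9 (*Vegfa* and *Csf1*). The count at least 1.5-fold lower was 1 (*Hbegf*), and became 0 with a pseudocount of 5 CPM, 0 with equal cluster weights and 0 without clusters 1 and 9. Leaving out clusters 1 and 9, over 80% of whose cells were Fcmr-/-, was chosen after seeing the data. The other 43 counts recomputed each stayed within 1.5 times the value reported. Of the log2 ratios of single factors, 36 moved by more than their counting interval. *Pdgfb* changed sign under 3 alternatives, *Adm* under 2, and *Pdgfa* and *Vegfb* under 1 each. Between 4 and 7 factors were highest in the same cluster of both libraries over the alternatives, against 5. *Adm*, *Pdgfa* and *Pdgfc* were among them each time. *Vegfb* and *Pdgfb* dropped out at resolution 0.4. *Vegfb* also dropped out with the factors kept among the variable genes and without cells with UMIs of other cell types. Among pairs, 3 to 6 reached 1.5, against 4. Of those 4 pairs, *Pdgfb* with *Adm* dropped out with all UMIs of a cell and with thinning at the 5th or the 25th percentile, and *Pdgfa* with *Adm* and *Csf1* with *Adm* within clusters. *Pdgfa* joined the factors higher with hypoxia when *Gapdh*, *Ldha* and *Aldoa* were left out of the score, and *Igf1* left those lower with 3 parts. No paired analysis was possible because each genotype had 1 library. Depth limits *Pdgfb* most, at 895 and 872 UMIs.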
